A study of Homo sapiens with 3 samples.

Results

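Blood vessel organoids are three-dimensional cultures in which human pluripotent stem cells form endothelium and mural cells, and here a small epithelial population within them was examined. Its members were defined by transcripts: barcodes with at least 1000 unique molecular identifiers (UMIs), at least 500 detected genes and no more than 20% of UMIs from mitochondrial genes entered, and of these kept barcodes a member had at least 1 UMI of EPCAM, at least 3 UMIs of GNRH2 and MLN together, and fewer than 3 of GABRP. The rule found 77 members among 23805 kept barcodes, 0.323%. They are called the GNRH2 epithelial cells here, because GNRH2 was detected in all 77, in 76 of them without MLN, and MLN was detected in 1.

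The starting cells were H1, an established embryonic stem line of human origin, into which a PiggyBac transposon had placed a cassette that expresses NEUROD1, a neurogenic transcription factor, together with GFP through a P2A linker when doxycycline is present. All 3 groups carried the cassette, received BDNF and NT-3 from day 15, and were harvested on day 45. One group received no doxycycline, one had 15 days of induction and one had 45 days, with 1 µg/ml doxycycline in both induced groups; which 15 days were induced is not given in the labels. Each group was 1 library, made from 5 to 6 organoids pooled and dissociated with papain, so no difference between groups has a replicate check and no test between groups was possible. Values for the libraries are given below in the order no induction, 15 days, 45 days.

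GNRH2 encodes the second form of gonadotropin-releasing hormone, a short secreted peptide whose role in humans is less well understood than that of GNRH1. MLN encodes motilin, a peptide hormone released by endocrine cells of the upper small intestine that stimulates gut movement. The lining of the small intestine is a simple columnar epithelium whose identity depends on the transcription factors CDX2 and HNF4A; its absorptive cells carry a brush border and package dietary fat with apolipoproteins, many of which the liver and the yolk sac endoderm also secrete.

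The stretch of genome before GNRH2 is shown because the members were chosen on this gene, and the one before FABP1, which encodes a fatty acid binding protein of intestine and liver, because it was high in the members without being part of the rule. Both are the 250 bases before the RefSeq start site (GRCh38.p14), written 5′ to 3′ on the strand of the gene, with matches to a binding pattern of CDX factors (TTTATNG, either strand) in capitals. The first lies at chr20:3043372-3043621 on the plus strand and the second at chr2:88128063-88128312 on the minus strand.
GNRH2: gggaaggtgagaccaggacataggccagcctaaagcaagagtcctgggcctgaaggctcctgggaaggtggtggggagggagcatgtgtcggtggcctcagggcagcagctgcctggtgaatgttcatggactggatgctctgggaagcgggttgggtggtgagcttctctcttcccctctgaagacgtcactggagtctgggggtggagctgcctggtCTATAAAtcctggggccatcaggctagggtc
FABP1: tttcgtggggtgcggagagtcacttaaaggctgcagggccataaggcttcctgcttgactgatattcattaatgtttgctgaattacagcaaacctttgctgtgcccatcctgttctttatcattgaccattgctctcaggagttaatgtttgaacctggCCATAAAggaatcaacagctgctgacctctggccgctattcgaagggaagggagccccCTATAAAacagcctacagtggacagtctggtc
The single match before GNRH2 begins 31 bases from the start site and overlaps the TATA-box letters TATAAA. FABP1 had matches beginning 90 and 32 bases before its start, and the nearer one likewise overlaps TATAAA. The 250 bases before MLN, the other peptide gene of the rule, were searched too and held neither the CDX pattern nor TATAAA. Of 35116 RefSeq promoters of the same length, 8.93% held the CDX pattern, 10.7% held TATAAA on either strand and 2.96% held both overlapping. A match describes letters and is not evidence of binding.

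Before filtering the 3 libraries held 10232, 5962 and 10765 barcodes with 59879923, 49488425 and 64171327 UMIs; the kept barcodes had median depths of 5306, 7368 and 5697 UMIs. NEUROD1 was measured at 1.33, 1.41 and 42.7 CPM (a gene's UMIs as a share of all UMIs of the same cells, scaled to 1000000) over the kept barcodes, with a UMI in 4, 33 and 369 of them; the files do not show whether transcripts of the cassette are counted under that gene. Pairs of libraries had 13, 33 and 15 barcode sequences in common, and 0 of these were members. The members themselves held 74, 2 and 0 NEUROD1 UMIs, in 1, 1 and 0 cells.

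The share of GNRH2 epithelial cells was 0.452% without induction (40 of 8858 kept barcodes, exact 95% interval 0.323 to 0.614), 0.603% after 15 days (32 of 5303, 0.413 to 0.851) and 0.0518% after 45 days (5 of 9644, 0.0168 to 0.121). The first 2 intervals overlap and the 45-day interval lies below both. These Clopper-Pearson intervals cover counting error only, and the difference between single libraries cannot be told apart from a difference between batches of organoids. Member depth also differed, with medians of 2480, 7573 and 21455 UMIs, and ranged from 1015 to 93112 UMIs. The deepest cell of each library supplied 16.5%, 17.1% and 35.4% of the UMIs of its library's members. When every barcode was thinned to 2000 UMIs the shares were 0.223%, 0.339% and 0.0219%. A doublet caller marked 0, 3 and 0 members.

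**Figure D1:**
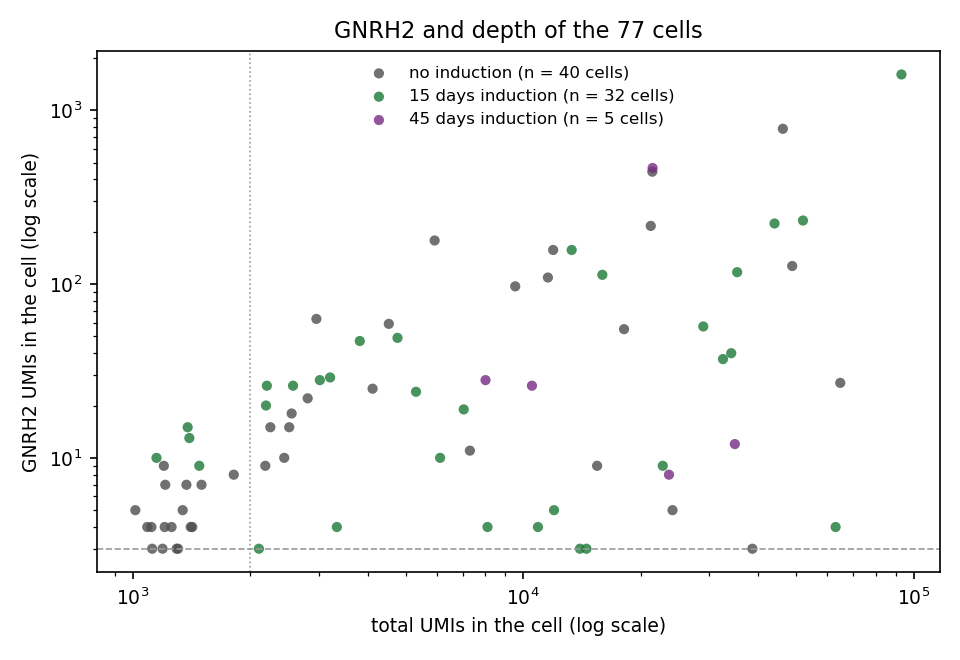
GNRH2 UMIs against total UMIs for each of the 77 cells, on log axes and coloured by library; the dashed line is the 3 UMIs of the rule and the dotted line a depth of 2000 UMIs. Of the 21 cells left of the dotted line 17 are uninduced, and the 5 cells of the 45-day library all lie to its right.

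The 17 uninduced members under 2000 UMIs differed from the 23 deeper ones in their background of mesenchymal transcripts. COL1A1, a fibrillar collagen of connective tissue, was at 1418 CPM in the shallow cells, 69.9 CPM in the deeper ones and 1654 CPM in the other kept cells of that library. COL3A1 followed the same order at 2653, 164 and 3663 CPM, and VIM at 3522, 393 and 8083 CPM. CDX2 had 0 UMIs in the 17 shallow cells, where 3 UMIs of their 21865 correspond to 137 CPM, and was at 161 CPM in the deeper ones, while GNRH2 was at 3842 and 6605 CPM. Free RNA, doublets and true expression in the shallow cells were not tested.

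At the edge of the rule, 8 members had a GNRH2 and MLN sum of exactly 3, and 21 other kept barcodes with EPCAM had a sum of 2. A further 25 kept barcodes reached 3 without an EPCAM UMI, 21 of them uninduced. EPCAM, an adhesion molecule of epithelia, rested on a single UMI in 11 members. The GABRP limit removed no barcode, since 73 members had 0 GABRP UMIs and 4 had 1.

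The next values chose the members and are given as description. GNRH2 (ENSG00000125787, chr20:3043622-3045747, plus strand) stood at 6451, 5396 and 5474 CPM in the members of the 3 libraries, from 2539, 2946 and 539 UMIs. The uninduced level was the highest, and the intervals of the other two libraries overlapped. One cell in each library gave 30.8%, 54.5% and 86.3% of the UMIs, and without it the levels were 5059, 2959 and 961 CPM. Members held 71.6%, 84.0% and 88.7% of all GNRH2 UMIs in the kept barcodes of their library. Outside them GNRH2 was at 9.74 CPM. In endothelial cells, which should lack it, a GNRH2 UMI was found in 7.11%, 8.67% and 1.43% of cells at median depths of 7740, 8848 and 7527 UMIs. The member richest in GNRH2, a 15-day cell, supplied 1606 GNRH2 UMIs, 26.7% of the total.

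MLN did not mark the population. All 936 of its UMIs in members came from 1 uninduced cell, and the other 29 of the 965 in kept barcodes were spread over 25 cells that held at most 2 each. SPINK1, a secreted trypsin inhibitor made in pancreas and gut, was not part of the rule and was detected in 31 of 40, 21 of 32 and 5 of 5 members. It reached 648, 1161 and 619 CPM, highest in the 15-day library, against 11.6 CPM in the other kept cells. One 15-day cell gave 277 of the 634 SPINK1 UMIs of that library's members. GNRH1 had 3 UMIs in the members, and GNRHR, MLNR and GHSR, the receptors for these peptides and for ghrelin, had 0.

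The gene lying directly after GNRH2 was also high. MRPS26 (ENSG00000125901, chr20:3045945-3048254, plus strand), which encodes a protein of the mitochondrial ribosome, starts 197 bases after the annotated end of GNRH2 on the same strand. In members it was at 2482, 1722 and 2092 CPM, against 95.9, 107 and 89.6 CPM in the other kept cells of each library. The ratios were 25.9 (95% counting interval 24.1 to 27.7), 16.1 (15.0 to 17.3) and 23.3 (20.2 to 26.8), and a UMI was found in 71 of 77 members. One cell gave 57.8% of the 45-day UMIs, and the level without it was 1130 CPM. Part of the space between the genes is shown because 3′ counting assigns each read by position. These 143 bases, chr20:3045802-3045944 on the plus strand, end at the base before MRPS26.
between GNRH2 and MRPS26: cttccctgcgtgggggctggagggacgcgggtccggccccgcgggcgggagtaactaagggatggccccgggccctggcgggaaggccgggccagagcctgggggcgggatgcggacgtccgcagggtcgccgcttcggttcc
The stretch holds 0 copies of AATAAA and 0 of ATTAAA, the common letters of a polyadenylation signal, on the plus strand. The bases nearest GNRH2 and the end of GNRH2 itself were not searched, so this count does not bear on where GNRH2 transcripts end. Across the 56 members with at least 2000 UMIs, GNRH2 and MRPS26 had a Spearman correlation of 0.69 and a Pearson correlation of 0.67 on log2 values with 100 CPM added; the points share library and depth. Reads running on from GNRH2 into MRPS26 and separate transcription of MRPS26 were not tested.

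**Figure D2:**
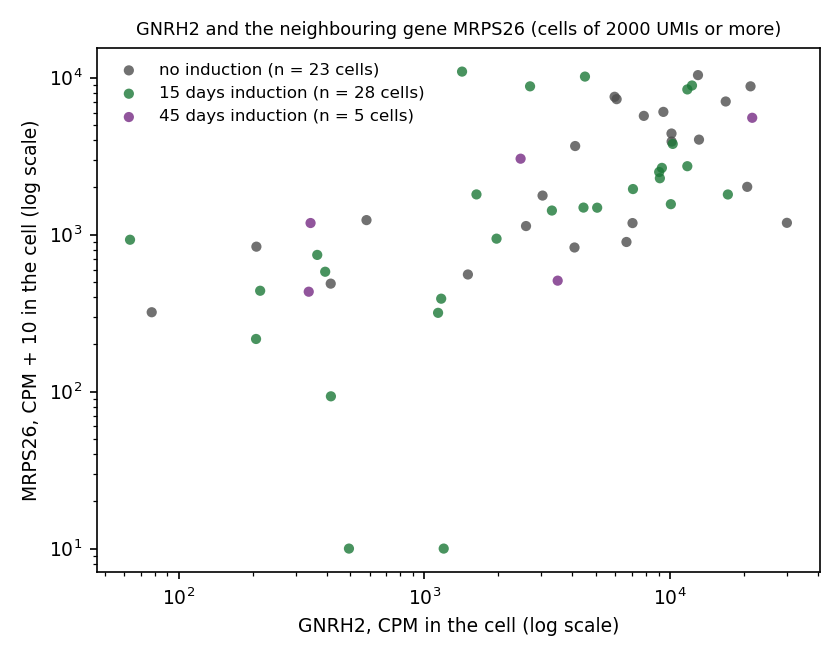
MRPS26 (CPM with 10 added) against GNRH2 (CPM) in the 56 cells with at least 2000 UMIs, both on log axes and coloured by library. Cells with more GNRH2 also tended to hold more MRPS26, with a Spearman correlation of 0.69.

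Against the other 23728 kept cells, the members carried genes of intestinal absorptive epithelium and of liver or yolk sac endoderm together. Of 3383 genes at 50 CPM or more on either side, 254 (7.51%) were at least 4-fold higher in members and 174 (5.14%) were lower by the same margin, once 5 CPM had been added on each side and the 4 genes of the rule set aside. In means of per-cell CPM, which weigh each cell equally, the split was 293 higher and 82 lower. The members had been picked out with results of these data in view, so these counts describe them and test nothing. Intervals below cover counting error in UMIs and miss variation from cell to cell.

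Among the transcription factors of gut endoderm, CDX2, which specifies hindgut and intestine, was at 152, 80.6 and 162 CPM with a UMI in 14 of 40, 16 of 32 and 4 of 5 members. It was 1.07 CPM in the other kept cells, a 108-fold difference (84.9 to 137), and endothelial cells with a CDX2 UMI numbered 0 of 450, 2 of 323 and 0 of 210. Levels in members overlapped between the uninduced and 45-day libraries and were lowest at 15 days. HNF4A, a nuclear receptor of liver and intestine, was at 73.7, 71.4 and 30.5 CPM and 52.5-fold over the other cells. The endoderm factors FOXA1, FOXA2 and GATA6 were at 54.0, 41.4 and 57.8 CPM over all members and KLF5, a factor of many epithelia, at 111 CPM. All 5 genes of this list that reached the 50 CPM floor were at least 4-fold higher. The list summed to 105 CPM in the other kept cells, and these genes reached the floor through the members. CDX1, the partner of CDX2, had 2 UMIs, PDX1 of the duodenum and pancreas 1, and SOX2 of the foregut 3; the lung, thyroid and pharyngeal list had 7 of 10 genes at 0 UMIs, NKX2-1, PAX8 and PAX9 among them.

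For the intestinal epithelium list, 24 of 25 genes had a UMI in members. All 11 above the floor were at least 4-fold higher there, with a median log2 ratio of 4.66 against -0.07 over all genes tested. The whole list summed to 54.7 CPM in the other kept cells, so these 11 reached the floor mainly through the members. CDH17, an intestinal cadherin, was at 269, 119 and 173 CPM and 177-fold (143 to 219) over the other cells. The 15-day level was the lowest and its interval did not overlap the uninduced one. VIL1, the actin bundler of the brush border, was at 127, 65.9 and 60.9 CPM, and CDHR5, a cadherin that links microvilli, at 94.0, 93.4 and 173 CPM. MEP1A, a brush border metalloprotease, was at 170.2, 123 and 60.9 CPM with 0.542 CPM elsewhere, and the peptidases DPP4 and ANPEP at 161 and 116 CPM over all members; 1 cell gave 50.8% of ANPEP. PHGR1 stood at 470.1, 115 and 335 CPM and RNF186, a ubiquitin ligase of gut epithelium, at 76.2, 192 and 223 CPM. SI, sucrase-isomaltase, had 9 UMIs in 1 cell, FABP2 had 6 UMIs and LGALS4 was at 19.3 CPM.

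Lipid and vitamin A handling genes were high but uneven between libraries. FABP1 was at 432, 939.7 and 193 CPM, highest at 15 days. RBP2, which binds retinol in enterocytes, was at 635, 169 and 102 CPM, highest without induction. APOA4, an apolipoprotein of intestinal fat particles, was at 1652, 2125 and 10.2 CPM, with UMIs in 22 of 40, 12 of 32 and 1 of 5 members. It was 195-fold (182 to 209) over the other kept cells, the largest ratio by the log2 scale used among the genes named by the rule. One uninduced cell gave 72.6% of the APOA4 UMIs of its library, and the level without it was 516 CPM. MTTP, which loads lipid onto APOB, was at 122, 216 and 0 CPM.

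The liver and yolk sac list had 17 of 19 genes at least 4-fold higher and 1 lower, with a median log2 ratio of 4.36. APOA1, the main protein of high-density lipoprotein, was at 4878, 11758 and 406 CPM and found in 38 of 40, 21 of 32 and 2 of 5 members. AFP, the fetal serum protein, was at 4213, 9250.3 and 132 CPM in 37, 16 and 2 cells. APOA2 was at 4889, 4920.0 and 376 CPM, APOC3 at 2490.1, 3006 and 102 CPM, TTR at 1215, 1921 and 50.8 CPM and APOB at 602, 703 and 81.2 CPM. For each of these 6 genes the 45-day library was the lowest. One uninduced cell gave 45.8% of the AFP and 71.6% of the APOC3 UMIs of its library, and without it the levels were 2608 and 807 CPM. The fibrinogen chain gene FGB, at 844, 533 and 325 CPM, and the protease inhibitor gene SERPINA1, at 1491, 786 and 1016 CPM, had 1 cell with 62.5% and 89% of their 45-day UMIs, and the levels there without it were 160 and 147 CPM. ALB, the serum albumin of hepatocytes, was the 1 lower gene, at 12.7, 20.1 and 0 CPM. It stood at 41109 CPM in 24 kept cells with at least 10 ALB UMIs, all of the 15-day library, where AFP was at 60092 CPM. APOA1 UMIs were also found in 13.3%, 18.9% and 1.43% of endothelial cells, at 17.8, 21.8 and 1.73 CPM, so its level outside the members moved in the same direction over the libraries; the part of free RNA in the members' difference was not tested.

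**Figure D3:**
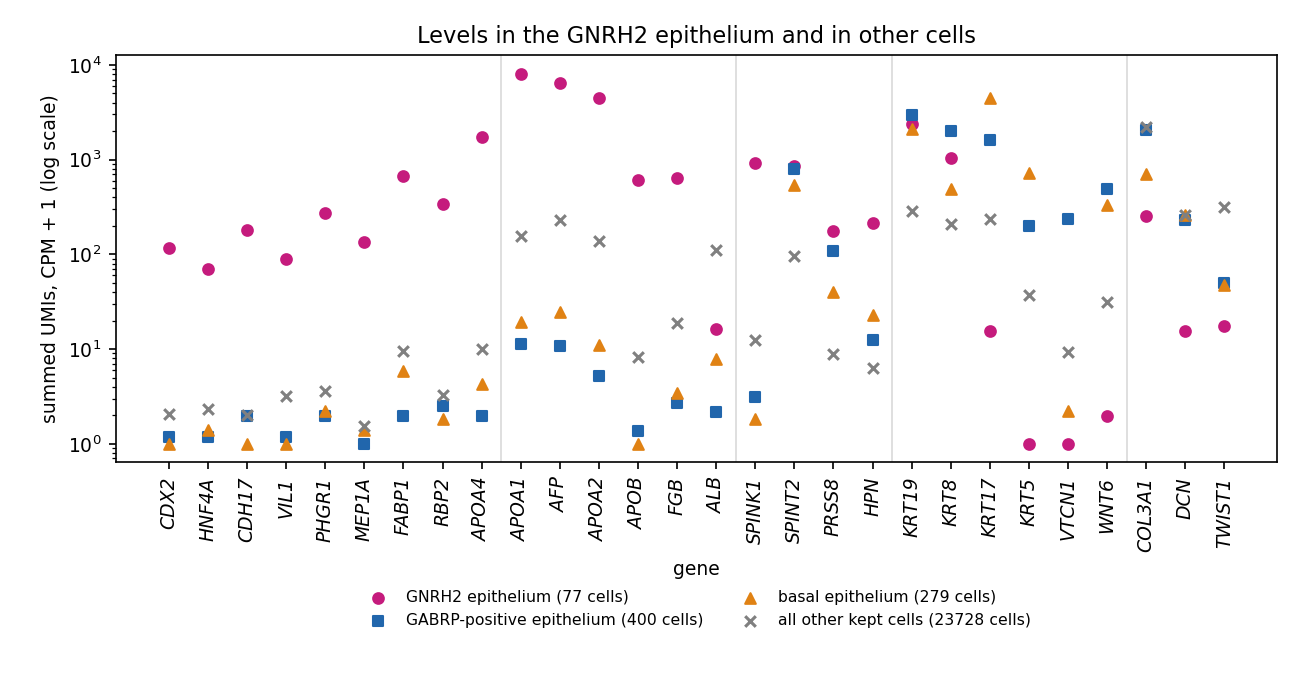
Summed level (CPM with 1 added, log axis) of genes named in the text in the 77 GNRH2 epithelial cells, in 400 GABRP-positive and 279 basal epithelial cells and in all other kept cells. Gut and liver genes from CDX2 to FGB are highest in the GNRH2 epithelial cells, and KRT17, KRT5, VTCN1 and WNT6 are lowest there among the 3 epithelia.

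Of the simple epithelium genes 11 of 14 were at least 4-fold higher than in the other kept cells. Every member had to hold EPCAM and most other kept cells lacked it, so this follows in part from the rule. Against other EPCAM-positive epithelia most of these genes were not 4-fold apart, as given below. The keratin genes KRT19, KRT18 and KRT8 were at 1535, 2651 and 4113 CPM, 1044, 1143 and 3899.5 CPM, and 826, 967 and 2285 CPM, all highest at 45 days. One 45-day cell gave 71.9% of the KRT18 and 60.9% of the KRT8 UMIs, and without it the levels were 1443 and 1176 CPM. ELF3, an epithelial transcription factor, was at 333 CPM over all members, CLDN7 and CLDN3 of tight junctions at 307 and 111 CPM, and CDH1, E-cadherin, at 133 CPM. CKB, the brain-type creatine kinase, was at 8672, 10208 and 12998 CPM in 76 of 77 members and 61.4-fold over the other cells. Trypsin-type and apical proteases had 3 of 3 genes at least 4-fold higher, and serine protease inhibitors 5 of 7. The protease list summed to 49.5 CPM in the other kept cells, under the floor, so its 3 genes entered through the members. Among the proteases HPN, hepsin, was at 236, 194 and 223 CPM and PRSS8, prostasin, at 188, 158 and 223 CPM.

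Secreted signals were also present. IHH, the hedgehog ligand of gut epithelium, was at 53.4, 117 and 20.3 CPM (41.8-fold over the other cells), and SHH at 30.5, 18.3 and 102 CPM. BMP2 stood at 73.7, 256 and 132 CPM and the receptor gene ERBB3 at 198, 108 and 173 CPM. The list of WNT, BMP and NOTCH components of gut patterning had 4 of 7 genes at least 4-fold higher than in the other kept cells. The background was 7.51%. Against GABRP-positive epithelial cells 2 of 9 were higher and 2 lower. Against basal epithelial cells 2 of 12 were higher and 6 lower, so the list went both ways. TFF3, a trefoil peptide of goblet cells, was at 22.9, 71.4 and 244 CPM and TFF1, its gastric relative, at 20.3, 86.1 and 20.3 CPM. The rest of the goblet and gastric list was thin: 13 of 18 genes had 0 UMIs, including MUC2, MUC5AC, SPDEF, ATOH1 and FCGBP.

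Markers of connective tissue and vessel wall were lower than in the other kept cells. The mesenchymal list had 0 genes higher and 10 of 11 at least 4-fold lower, with a summed level of 602 CPM against 6132; TWIST1 was at 16.4 against 314 CPM and THY1 at 3.85 against 209 CPM. Endothelial genes were lower by that margin in 5 of 6, mural genes in 3 of 5 and HOX genes in 2 of 2 cases. The background was 5.14%, and only 2 of 34 HOX genes were at the floor. These lists summed to 103, 80.9 and 108 CPM in members, so their genes reached the floor mainly through the other kept cells. The leukocyte genes PTPRC, TYROBP, SPI1 and CD14 had 0 UMIs. As means of per-cell CPM, 3 of 11 mesenchymal genes were at least 4-fold lower, with sums of 2209 and 6056 CPM. Cycling genes had 0 of 10 at least 4-fold apart, at 888 against 724 CPM. Without the 4 TOP2A-high members described below 4 of 6 were at least 4-fold lower, at 203 against 724 CPM. That fall was set by the choice, since TOP2A is a cycling gene and no such cells were left out of the other side. Of the neuronal genes 1 of 9 was lower; with doublet candidates left out 10 of 10 neuronal genes were at least 4-fold lower, at 140 against 2135 CPM.

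Against other epithelia of the organoids, nearly all genes of the intestinal and liver lists above the floor were at least 4-fold higher in members. Most general epithelial genes were not 4-fold apart. The 400 GABRP-positive cells (EPCAM and at least 3 GABRP UMIs; 304, 36 and 60 by library) gave 225 of 3294 genes (6.83%) at least 4-fold higher in members and 156 (4.74%) lower. In this comparison 11 of 11 intestinal and 18 of 19 liver and yolk sac genes were higher. Of the endoderm and gut transcription factors 4 of 6 were higher and 1 was at least 2-fold lower. The intestinal list summed to 33.7 CPM in the GABRP-positive cells, under the floor, so its 11 genes entered through the members. Of 15 simple epithelium genes 0 were higher and 2 lower. APOA4 was at 1745 against 0.951 CPM, SPINK1 at 915 against 2.09 CPM and CKB at 9890.5 against 29.9 CPM. Lower in members were S100A9, a calcium-binding protein of stressed squamous epithelium and myeloid cells, at 2.89 against 1186 CPM, the keratin gene KRT17 at 14.5 against 1628 CPM and the ligand gene WNT6 at 0.963 against 484 CPM. VTCN1, an immune checkpoint ligand of trophoblast and amnion, had 0 UMIs in members and was at least 81.5-fold lower, taking 3 UMIs summed over the members as the floor.

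The 279 basal cells (EPCAM, at least 3 UMIs of KRT15 and TP63 together; 47, 96 and 136 by library) gave 235 of 3469 genes (6.77%) higher and 184 (5.3%) lower. Again 11 of 11 intestinal genes were higher, and 18 of 18 liver and yolk sac genes, against 3 of 14 of simple epithelium. Of the endoderm and gut transcription factors 4 of 6 were higher and 1 was at least 2-fold lower. The intestinal list summed to 27.2 CPM in the basal cells, again under the floor. APOB had 0 UMIs in the basal cells and was at least 497-fold higher in members on a floor of 3 summed UMIs. KRT5, the keratin of basal layers, had 0 UMIs in members against 719 CPM and was at least 249-fold lower, and KRT17 was 307-fold lower. The 3 comparisons use the same 77 members.

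The design compares induction times, and within the members this sets 40, 32 and 5 cells of 3 single libraries against each other. Each pair of comparisons shares a library. After 15 days 94 of 3146 genes (2.99%) were at least 4-fold higher than without induction and 34 (1.08%) lower. The 45-day members had 90 of 3313 genes (2.72%) higher and 134 (4.04%) lower than the uninduced ones, and 51 of 3469 (1.47%) higher and 227 (6.54%) lower than the 15-day ones. In both directions together the shares were 4.07%, 6.76% and 8.01%.

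The 45-day cells were low in fat-transport and liver genes. Of the liver and yolk sac list 11 of 15 genes were at least 4-fold lower at 45 days than without induction, against the background of 4.04%, and 0 were higher; the summed levels were 25798, 42445 and 3991 CPM. APOA4 was 163-fold lower (counting interval 29.1 to 6434), from a single UMI in the 45-day members, and AFP 31.9-fold lower. Both folds rested in part on 1 uninduced cell; without it the uninduced levels were 516 CPM for APOA4 and 2608 CPM for AFP, against 10.2 and 132 CPM at 45 days. MTTP and the peptidase gene DPEP1 had 0 UMIs at 45 days, where 3 UMIs correspond to 30.5 CPM. For the intestinal list 3 of 12 were at least 4-fold lower and 0 higher, 7 were at least 2-fold lower, and the median log2 ratio was -1.07 against 0.10 over all genes tested. Its summed level was 1391 CPM at 45 days and 4426 CPM without induction. Against the 15-day members 14 of 18 liver list genes were lower. Without the deepest member of each library the counts for the liver list were 10 of 15 against no induction and 14 of 19 against 15 days.

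NPPB, the B-type natriuretic peptide precursor known from heart muscle, was at 81.3, 735 and 3493 CPM. It was lowest without induction and highest at 45 days, with no overlap of counting intervals. NPPB was found in 7 of 40, 11 of 32 and 3 of 5 members, and the exact intervals of these shares overlapped. The 45-day level was 43.0-fold the uninduced one (29.9 to 63.8), and 1 cell gave 49.4% of the 45-day UMIs. The glucose transporter gene SLC2A1, at 40.7, 372 and 629.6 CPM, and ADM, adrenomedullin, at 20.3, 139 and 162 CPM, were lowest without induction. KRT7, a keratin of ductal and bladder epithelium, was at 2.54, 23.8 and 244 CPM and FHL2 at 20.3, 203 and 548 CPM. One 45-day cell gave 87.5% of the KRT7 and 72.2% of the FHL2 UMIs, and the levels without it were 39 and 195 CPM. The epidermal growth factor family ligand AREG was at 76.2, 104 and 1381 CPM, but 1 cell gave 82.4% of its UMIs at 45 days. In the same way 1 cell held 94.6% of the 45-day UMIs of DUOXA2 and 91.7% of those of TM4SF1.

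Lower after 15 days than without induction were OAT, ornithine aminotransferase, at 478, 56.8 and 30.5 CPM (8.41-fold, 5.73 to 12.7), ALDH1A1, which makes retinoic acid, at 356, 58.6 and 162 CPM, and UPK3A, a uroplakin, at 366, 60.4 and 40.6 CPM. One uninduced cell gave 55% of the ALDH1A1 UMIs, and the level without it was 192 CPM. Higher were neuronal genes, 7 of 7 at least 4-fold with a summed level of 1246 against 78.8 CPM. Cycling genes were higher in 8 of 10 cases, at 1456 against 305 CPM. The background for both was 2.99%. With the whole neuronal list at 78.8 CPM without induction, its 7 genes reached the floor mainly through the 15-day members. NTS, neurotensin, was at 2.54, 288 and 0 CPM and the neurofilament gene NEFM at 10.2, 229 and 60.9 CPM. CYP26A1, which degrades retinoic acid, was at 5.08, 152 and 0 CPM. The cycling count rested on 4 cells of that library with high TOP2A, described below, which gave 59 of the 64 MKI67 UMIs. The same 4 cells gave 153 of the 158 NTS UMIs. Without them 1 of 2 neuronal and 0 of 2 cycling genes were at least 4-fold higher. With the 3 members marked as doublets left out, 0 of 1 neuronal and 7 of 10 cycling genes were. The neuronal count therefore rested mainly on members marked as doublets, and the cycling count did not.

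**Figure D4:**
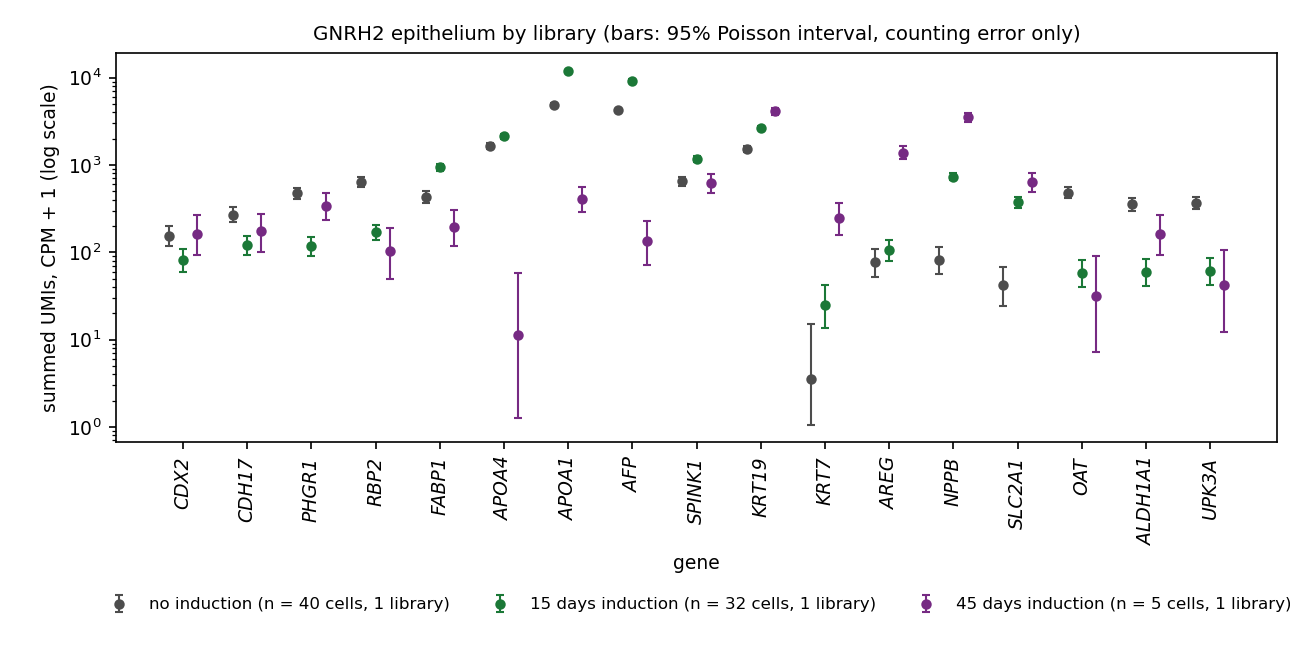
Summed level (CPM with 1 added, log axis) of 17 genes in the GNRH2 epithelial cells of each library; points are 1 library each and bars are 95% Poisson intervals of the UMI count. CDX2 has its lowest point at 15 days, with a bar that overlaps the 45-day bar. APOA4, APOA1 and AFP are lowest at 45 days, and NPPB stands at 81.3 CPM without induction and 3493 CPM at 45 days.

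The members were not uniform. The following sets were drawn on a single gene after its values had been seen, so the gene that drew each set is no finding and the other values are descriptions. NPPB was at 10 UMIs or more in 15 members (2, 10 and 3 by library) and at 2 or fewer in the other 62. AFP was at 50 UMIs or more in 14 deep members (5, 9 and 0), the highest value below that limit being 35. TOP2A was at 9 or more in 4 members, all of the 15-day library, and at 1 or fewer elsewhere. CHGA was at 100 or more in 2 members and at 3 or fewer elsewhere. Of the 77 members 46 were in none of these sets.

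In the 15 NPPB-high cells GNRH2 was at 13805 CPM against 3467 in the other 62 members, and SPINK1 at 2080 against 575 CPM. GNRH2 was higher in the NPPB-high cells of each library, at 18393 against 4625, 13747 against 2804 and 9436 against 837 CPM. One cell gave 81.5%, 90.3% and 92.8% of the GNRH2 UMIs of these NPPB-high sets; without it the 15-day set was at 4748 CPM in 9 cells and the 45-day set at 1138 CPM in 2 cells, and 1 cell was left in the uninduced set. SLC2A1 was at 759 against 128 CPM, ADM at 277 against 43.6 CPM and the lipid droplet gene PLIN2 at 1121 against 205 CPM. The adhesion molecule gene CEACAM6 was at 166 against 16.2 CPM and FXYD3, an ion transport regulator, at 1449 against 341 CPM. APOA1 was 8.12-fold lower (7.22 to 9.16) at 1240 CPM, and AFP 5.96-fold lower (5.32 to 6.70) at 1338 CPM. CDX2 and VIL1 were at 72.5 and 85.2 CPM in the NPPB-high cells and at 128 and 89.6 CPM in the others. Median mitochondrial shares were 0.556% and 2.88%, and the 10 NPPB-high cells of the 15-day library had a median of 0.136% and a median depth of 3108 UMIs; the part of cell state or damage in these differences was not tested.

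In the 14 AFP-high cells APOA1 was at 13551 CPM against 2498 in the other members, a 5.43-fold difference, and APOC3 9.49-fold, APOA4 8.64-fold and APOB 7.37-fold higher. NPPB was 10.4-fold lower, at 132 against 1376 CPM. The NPPB-high and AFP-high sets had 1 member in common, a 15-day cell. The AFP-high set held 0 cells of the 45-day library, where NPPB was highest, so this ratio mixes library with set. CDX2 was at 109 against 123 CPM and VIL1 at 93.6 against 83.6 CPM. The AFP-high cells were deep, with a median of 32133 UMIs against 2953, and the limit was a count. Over the 56 members with at least 2000 UMIs, AFP and APOA1 had a Spearman correlation of 0.79, APOA4 and APOC3 of 0.74, and AFP and CDX2 of -0.10, again over points that share library and depth. GNRH2 had correlations of -0.04 with APOA1, 0.41 with CDH17 and 0.48 with CKB.

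The 4 TOP2A-high cells of the 15-day library, with a median of 34726 UMIs, held GNRH2 at 1199 CPM. MKI67, a proliferation marker, was at 357 against 5.73 CPM in the other 73 members. NTS was at 927 against 5.73 CPM with UMIs in all 4 cells, NEFL at 563 against 9.17 CPM in 2 of them, and BMP2 at 587 against 97.4 CPM. APOA1 was at 16639 against 6452 CPM. SPINK1, CDH17, PHGR1, RBP2 and ELF3 had 0 UMIs in these 4 cells, and CDX2 had 6 UMIs in 3 of them. CST1, a cystatin, was at 2768 CPM, nearly all from 2 of the 4 cells with 221 and 235 UMIs. These 2 cells, at 32495 and 34117 UMIs, held NEFM at 41 and 60 UMIs and were both among the 3 members marked as doublet candidates; whether they are doublets was not tested further.

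The MLN cell was the deepest uninduced member, with 64904 UMIs and a mitochondrial share of 14.2%, and it was one of the 2 CHGA-high cells and one of the AFP-high cells. Its transcripts included endocrine ones: 936 UMIs of MLN, 1074 of CHGA, a granule protein, 90 of GHRL, the precursor of ghrelin, 39 of SCGN and 18 of PCSK1, a prohormone convertase. The endocrine transcription factors NEUROD1, PAX4, NKX2-2, INSM1 and RFX6 had 74, 18, 14, 10 and 10 UMIs. It also held 12 UMIs of CDX2, 12 of CDH17, 83 of PHGR1, 65 of SPINK1, 27 of GNRH2 and 139 of CELA3A, a pancreatic elastase. This cell had no doxycycline, and its 74 NEUROD1 UMIs were all of those in uninduced members. The other CHGA-high cell, of the 15-day library with 14526 UMIs, held 131 UMIs of INS, insulin, 139 of CHGA, 22 of SPINK1 and 3 of GNRH2, beside 66 of COL3A1. Over all members NEUROG3, GCG, SST, GIP, PYY, CCK and TPH1 had 0 UMIs, and the enteroendocrine list summed to 0 in 44 of 77 cells.

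**Figure D5:**
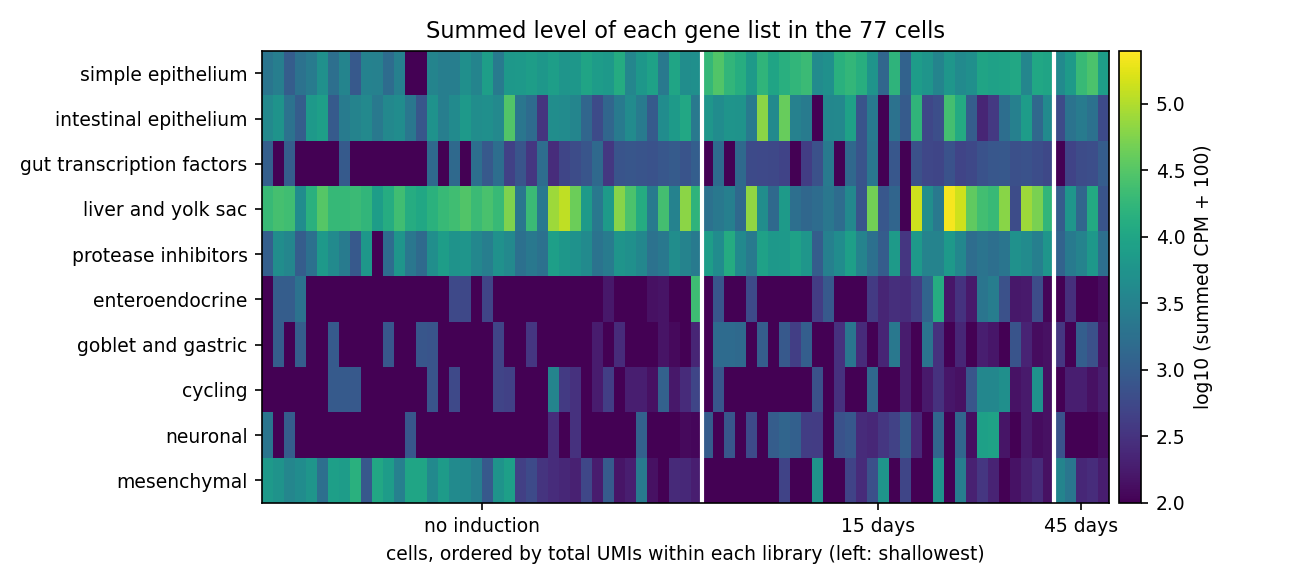
Summed CPM of 10 gene lists in each of the 77 cells (log10 of the sum with 100 added), with cells ordered by total UMIs within each library. Intestinal genes are detected in 75 of 77 cells, liver and yolk sac genes vary most visibly, and mesenchymal transcripts sit in the shallow uninduced cells at the left.

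Per cell, the intestinal list summed to a median of 2884 CPM, with 0 in 2 of 77 cells and a highest value of 65178 CPM. Liver and yolk sac genes had medians of 19443, 3314 and 1212 CPM in the 3 libraries, while the summed levels were highest in the 15-day library, where single cells reached 223358 CPM. The mesenchymal list had medians of 2646, 21.5 and 169 CPM.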

How the data were processed

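The deposited values are UMI counts per gene and barcode in 3 matrices, not normalized by the authors; per the submitters' processing notes they came from Cell Ranger 3.0.0 on build GRCh38, and the matrix headers name version 3.0.1. Gene coordinates came from GENCODE 29, in which 33456 of 33538 identifiers were found; the annotation used for counting is not given in the sources used here. Promoter sequences and their motif background came from RefSeq (GRCh38.p14). Members were summed by library and given as CPM. Ratios used log2 values with 5 CPM added, over genes at 50 CPM or more on either side, and a gene at least 4-fold apart was counted. With 1 library per group no test was made; intervals are exact Poisson, binomial or conditional binomial at 95% and cover counting error, not cell-to-cell or library variation. Doublet candidates were the barcodes scoring highest against simulated doublets within each library, taken at an assumed 0.8% per 1000 kept barcodes, and stayed in the values unless stated. Thinning drew 2000 UMIs per cell.

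Named genes were the genes of the rule, SPINK1, the 25 highest ratios over the other kept cells and the 8 highest and lowest ratios in each other comparison (at least 100 CPM and a UMI in 20% of cells on the higher side), with genes of the 25 lists; a selection is printed. The members and lists were chosen with earlier results of these data known. The ratio script was checked on simulated counts. Python 3.11.15, numpy 2.4.6, scipy 1.17.1, pandas 2.3.3, scanpy 1.11.5 and matplotlib 3.10.9 were used.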

Additional observations from a re-analysis of the deposited data

How the results depend on the processing

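No paired analysis was possible because each group had 1 library and the labels carry no replicate numbers. The member share without induction, 0.452%, was 0.655% with no filter on barcodes, 0.228% with a stricter filter (2000 UMIs, 1000 genes, 10% mitochondrial UMIs) and 0.223% after thinning to 2000 UMIs; the 15-day share, 0.603%, was 0.403% with the stricter filter and 0.339% after thinning. The 45-day share was the lowest of the 3 under every alternative run. The number of genes at least 4-fold apart depended on the constants: with 20 CPM added or a floor of 100 CPM it was 222 and 238 in place of 428 against the other kept cells, 244 and 214 in place of 381 against GABRP-positive cells, 227 and 230 in place of 419 against basal cells, 66 and 73 in place of 128 for 15 days against no induction, 90 and 96 in place of 224 for 45 days against no induction, and 127 and 123 in place of 278 for 45 against 15 days. As means of per-cell CPM the last 3 counts were 389, 498 and 441, and without the deepest member of each library the last was 463. The share of members with GNRH2 and no MLN, 98.7%, was 89.3% (50 of 56) after thinning. GNRH2 itself was left in 22 of 23, 24 of 28 and 5 of 5 members of the 3 libraries after thinning, so loss of GNRH2 UMIs enters this fall. The other 48 alternative values stayed within the margin set for them, 1.5 times for counts and the counting interval for shares. A median-ratio scaling shifted log2 ratios by less than 0.08. The alternatives given for gene lists, the levels without the cell richest in a gene and the restriction to members of 2000 UMIs or more were chosen after seeing the data. Depth limits the 45-day values most: 3 UMIs among its members correspond to 30.5 CPM.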

Other observations

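Some genes beyond those groups were high in a few members only. MT1X, a metallothionein that binds zinc and copper, was at 2676, 962 and 203 CPM in the 3 libraries with UMIs in 19 of 77 members, and 1 cell gave 30.7% of its UMIs. UPK3A, a uroplakin of the bladder lining, was found in 29 members and UPK1B in 9. The urothelial list had 2 of 2 genes above the floor at least 4-fold higher than in the other kept cells (174 against 2.77 CPM for UPK3A). The list summed to 23.7 CPM there, under the floor, so these genes entered through the members. LCN15, a lipocalin, was at 144 against 1.68 CPM with 50.7% of its UMIs in 1 cell. These values are descriptions of single libraries and no explanation was tested.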
